A study of Mus musculus with 6 samples.

Results

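In RNA sequencing of mouse hippocampus, 37 of 3733 listed genes were at least 2-fold lower in 2 of 6 libraries, 1 of each treated group, than in each of the other 4. The libraries were PIA 2 and PIA+IL-27 1. The genes include homeobox and proneural transcription factors (Lhx9, Emx2, Neurog2), the mineralocorticoid receptor Nr3c2, 7 G protein-coupled receptors such as Npy2r and Mas1, and the secreted protein Igfbpl1. They were chosen by these levels: the higher normalized read count of the 2 libraries, plus 1, had to be at most 0.5 times the lowest of Control 1, Control 2, PIA 1 and PIA+IL-27 2, plus 1, and that lowest value had to be at least 20. Of the 3733 genes, 2068 had this minimum, and 41 met both thresholds (1.1% of all listed genes and 1.98% of those with the minimum). The rule drops by name some genes and families, and 4 of the 41 fell out this way: Eomes, Prox1, Kcng2 and Cfap126. The low level in PIA 2 and PIA+IL-27 1 is therefore what chose the genes and is given as a description, with no test.

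The study compared hippocampi of control mice (Control), of mice given LPS (PIA) and of mice given LPS with recombinant IL-27 (PIA+IL-27), with 2 libraries per group. LPS is a component of bacterial cell walls that sets off innate immune responses, PIA stands for immune activation after birth, and IL-27 is a cytokine. The sources used here state no strain, age, sex, dose or time, and nothing says whether the samples came from separate animals, so p-values cover the spread between these samples only. All 3733 listed genes have a log2 ratio of 1 or more in either direction, with a Q value no larger than 0.05, in at least 1 comparison of these groups in the authors' deposited table, and their reads summed to between 641672 and 1593441 per library.

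The hippocampus is built from pyramidal neurons of Ammon's horn, granule neurons of the dentate gyrus and a niche at the dentate gyrus where new granule neurons are born. It lies under the neocortex and beside the choroid plexus and the ciliated ependyma of the ventricle. Emx2 is a homeobox gene that the medial pallium needs to form hippocampus and dentate gyrus, the proneural factor Neurog2 and Igfbpl1 are known from neuronal progenitors and young neurons, and the mineralocorticoid receptor is abundant in hippocampal neurons.

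The promoters of the 3 genes with the lowest ratio are shown because these genes carry the pattern most sharply. Each is the 250 bases before the gene start in a RefSeq table of build GRCm38.p6, 5′ to 3′ on the gene's strand. Capitals mark matches on either strand to 6 motifs: the TATA box (TATAAA), the CCAAT box (CCAAT), the GC box (GGGCGG), a homeobox core (TAATTA) and the E-boxes CAGATG and CAGCTG.
Lhx9, chr1:138842445-138842694, minus strand: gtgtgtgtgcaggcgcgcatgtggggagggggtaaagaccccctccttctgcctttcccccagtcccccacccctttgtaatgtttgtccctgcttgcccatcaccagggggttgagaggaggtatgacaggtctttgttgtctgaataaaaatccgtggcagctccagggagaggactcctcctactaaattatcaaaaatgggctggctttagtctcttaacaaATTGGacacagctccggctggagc
Pdlim3, chr8:45885237-45885486, plus strand: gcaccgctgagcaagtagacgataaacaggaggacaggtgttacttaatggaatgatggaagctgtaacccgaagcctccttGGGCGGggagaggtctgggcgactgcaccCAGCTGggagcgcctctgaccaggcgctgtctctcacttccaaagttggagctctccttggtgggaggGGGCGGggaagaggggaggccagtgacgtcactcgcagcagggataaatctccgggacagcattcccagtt
Neurog2, chr3:127632886-127633135, plus strand: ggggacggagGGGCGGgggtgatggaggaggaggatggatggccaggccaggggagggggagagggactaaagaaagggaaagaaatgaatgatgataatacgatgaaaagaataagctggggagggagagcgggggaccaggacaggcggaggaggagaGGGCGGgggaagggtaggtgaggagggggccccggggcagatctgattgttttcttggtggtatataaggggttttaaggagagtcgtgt
The Lhx9 window held a CCAAT box on the reverse strand that begins 24 bases before the start. The Pdlim3 window held 2 GC boxes and the E-box CAGCTG, and the Neurog2 window held 2 GC boxes.

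The table had promoter windows for 29 of the 37 genes. A GC box was found before 16 of them (55.2%), against 47.8% of 2905 listed genes with a window and 32.7% of all 32851 windows of that length. A gene was counted if any of its windows matched, and some genes have several. The shares of all windows are per window, so they are an unlike measure here and below. CCAAT was found before 11 (37.9%), against 40.7% of the listed genes and 33.8% of all windows. The E-boxes CAGATG and CAGCTG were found before 5 genes each (17.2%), against 14.2% and 15.8% of the listed genes and 14.4% and 13% of all windows. The homeobox core was found before 2 genes, Il16 and Insc (6.90%), against 4.75% and 4.84%. TATAAA was found before 0 of the 29, against 11.2% of the listed genes and 12.4% of all windows. Only this exact string was sought, so other forms of the TATA box, in the printed windows or elsewhere, were not counted. The median GC content of the windows was 55.6% both for the module and for the listed genes. A match describes letters in these windows and is neither a binding site nor a cause.

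The rule takes PIA 2 and PIA+IL-27 1 as libraries marked by cortex, so their levels of regional markers are part of how they were chosen and are given as a description. Of 29 neocortical markers, 12 are in the table, and 7 of these were higher in both libraries than in each of the other 4, while 6.86% of all listed genes were. The 12 summed to normalized read counts of 12057 (PIA 2) and 31295 (PIA+IL-27 1), while the other libraries lay between 4139 and 6060.2. Mef2c alone held 5328 (PIA 2) and 21319 (PIA+IL-27 1) of these sums. Outside the 7, Etv1 (275) and Deptor (15.3) were lowest of the 6 libraries in PIA 2, and Rspo1 (11.5) was lowest in PIA+IL-27 1. Foxp2 was highest in PIA+IL-27 1 (130). Cux2, a transcription factor of upper cortical layers, had a normalized read count of 2400.2 (PIA 2) or 2370.1 (PIA+IL-27 1) in the low libraries, compared with 746 (Control 1), 577 (Control 2), 664 (PIA 1) and 584 (PIA+IL-27 2). Cplx3, a complexin of deep cortical neurons, had a normalized read count of 418 (PIA 2) or 325 (PIA+IL-27 1) in the low libraries, compared with 24.5 (Control 1), 12.4 (Control 2), 37.5 (PIA 1) and 19.4 (PIA+IL-27 2). Both libraries lay below each of the others for 5 of 11 listed dentate granule markers and 4 of 9 listed genes of adult neurogenesis, and for 6.35% of all listed genes. These counts include genes that met the rule by the same values: Dsp and Prox1 in the dentate list, and Neurog2, Igfbpl1 and Eomes in the other. Outside these, the counts were 3 of 9 dentate markers (Neurod1, Lct and Zbtb20) and 1 of 6 neurogenesis genes (Neurod1). The margin was small for Zbtb20, with 236 (PIA+IL-27 1) against 249.8 (PIA 1), and for Lct, with 38.2 (PIA 2) against 45.2 (PIA 1). For Neurod1 it was wider, with 268 (PIA+IL-27 1) against 394 (Control 1). The dentate sums did not separate the libraries: they were 963 (PIA 2) and 3189.7 (PIA+IL-27 1) and otherwise 2009 to 6139 normalized read counts. Cntnap5a, Stxbp6, Rfx3, C1ql3, Dock10 and Maml2 of that list had higher normalized read counts in PIA+IL-27 1 than in Control 1 and PIA 1. Of these, Cntnap5a (502), Stxbp6 (709) and Rfx3 (817) were highest of the 6 libraries in PIA+IL-27 1. The neurogenesis list summed to 4305 (PIA 2) and 14417 (PIA+IL-27 1), and to 8348 (Control 1), 13985 (Control 2), 9221 (PIA 1) and 16914 (PIA+IL-27 2). In PIA+IL-27 1 Dcx, a microtubule protein of young neurons, and Elavl2, a neuronal RNA-binding protein, had the highest normalized read counts of the 6 libraries, 10422 and 1552, and Sox11 had the second highest, 1546. None of the 12 neocortical markers is among the 37 genes. The part of tissue composition in the levels of the module was not tested, and in bulk tissue fewer cells of a type and less RNA per cell cannot be told apart.

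**Figure D1:**
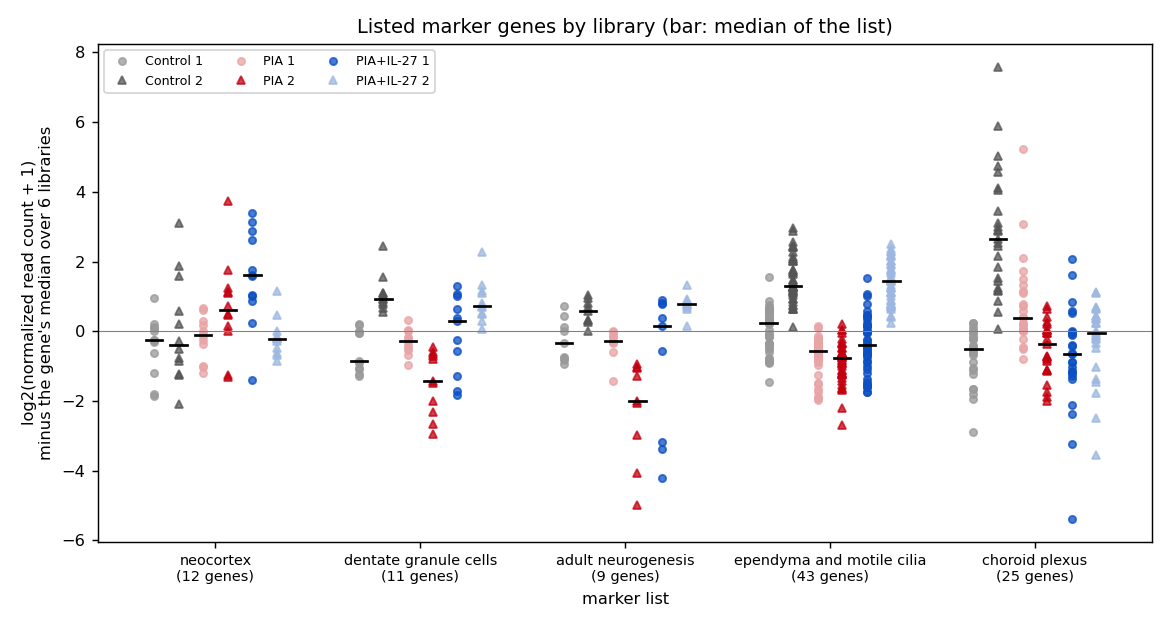
Each point is 1 listed marker gene in 1 library; the vertical axis is log2(normalized read count + 1) minus the gene's median over the 6 libraries, and bars are the median of the list. In PIA+IL-27 1 and PIA 2, 7 of 12 neocortical markers sit above every other library, while Etv1, Deptor and Rspo1 are lowest in 1 of these libraries. The dentate and neurogenesis lists hold genes far below 0 in both and, in PIA+IL-27 1, also genes above 0.

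Transcription factors had the widest median gap among the roles. The gap of a gene is given as a fold, the lowest of the 4 high libraries plus 1 over the higher of the 2 low libraries plus 1, and it ran from 2.0 to 13.7 over the 37 genes with a median of 2.97. In 8 genes the fold was at least 4 and in 13 it was under 2.5. The 6 transcription factors had a median fold of 3.79 and the 7 secreted and matrix proteins 3.23. The 9 junction, cytoskeleton and intracellular proteins had 2.78, the 10 receptors 2.70 and the 5 enzymes 2.38. These groups were made by known role with the values known.

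Lhx9 (gene ID 16876), a LIM homeobox factor of the developing forebrain and gonad, had a normalized read count of 6.55 (PIA 2) or 7.30 (PIA+IL-27 1) in the low libraries, compared with 113 (Control 1), 259.9 (Control 2), 131 (PIA 1) and 259 (PIA+IL-27 2). Its fold was 13.7, the largest of the module, and the 2 low libraries were close to each other while the 4 high ones spanned about the range set by Control. Neurog2 (gene ID 11924), a basic helix-loop-helix factor that commits progenitors to a neuronal fate, had normalized read counts of 88.2 (Control 1), 63.8 (Control 2), 43.2 (PIA 1) and 97.1 (PIA+IL-27 2), but 2.18 (PIA 2) and 4.17 (PIA+IL-27 1). PIA 2 and PIA+IL-27 1 thus held few reads of this gene, and PIA 1 lay below both Control libraries. Emx2 (gene ID 13797) had 41.5 (PIA 2) and 63.6 (PIA+IL-27 1) as its low normalized read counts, and 280.1 (Control 1), 279 (Control 2), 209 (PIA 1) and 324 (PIA+IL-27 2) as its high ones, with the Control libraries nearly equal. Nr3c2 (gene ID 110784), the receptor for mineralocorticoids and a high-affinity receptor for glucocorticoids, had a normalized read count of 111 (PIA 2) or 208 (PIA+IL-27 1) in the low libraries, compared with 679.8 (Control 1), 1336 (Control 2), 729 (PIA 1) and 1209.8 (PIA+IL-27 2). It had the highest mean level of the 6 factors, 14.4 TPM (a level scaled by transcript length and library size). St18, a zinc finger factor of the Myt family, had normalized read counts of 52.9 (Control 1), 207 (Control 2), 60.5 (PIA 1) and 231 (PIA+IL-27 2), but 3.27 (PIA 2) and 11.5 (PIA+IL-27 1). Control 1 and PIA 1 held far fewer reads of St18 than Control 2 and PIA+IL-27 2, so this gene split the 4 high libraries as well. Vax1, a homeobox factor of the ventral forebrain, had 29.5 (PIA 2) and 29.2 (PIA+IL-27 1) as its low normalized read counts, and 113 (Control 1), 88.6 (Control 2), 76.9 (PIA 1) and 66.0 (PIA+IL-27 2) as its high ones, and its fold was 2.20.

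**Figure D2:**
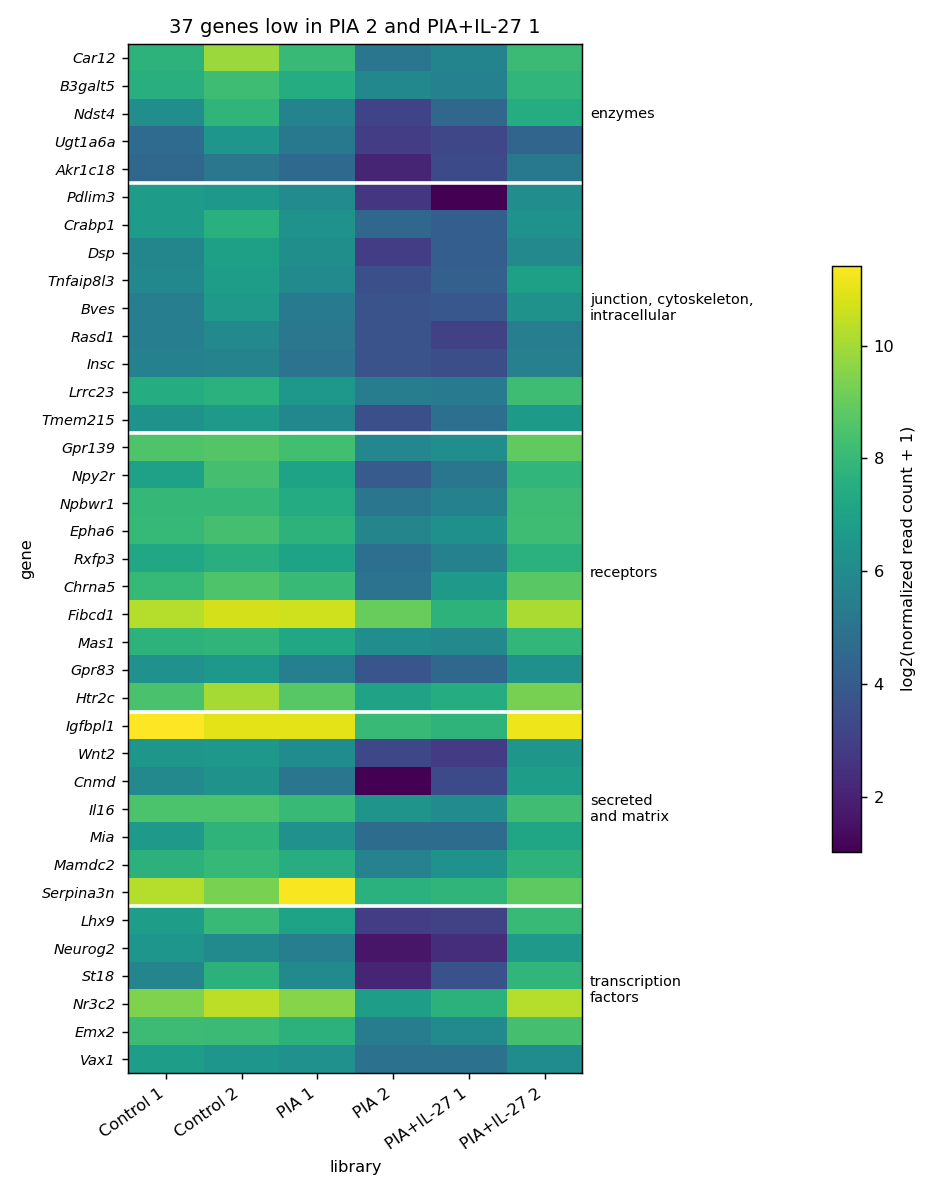
Colour gives log2(normalized read count + 1) of the 37 genes (rows, grouped by role and ordered by ratio) in the 6 libraries (columns). The columns PIA 2 and PIA+IL-27 1 are darker in every row, which is how the genes were chosen, and Serpina3n is brightest in PIA 1 at 2535 normalized read counts.

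Receptors made up 10 of the 37 genes, 7 of them G protein-coupled. Gpr139, an orphan receptor, had a normalized read count of 55.6 (PIA 2) or 68.8 (PIA+IL-27 1) in the low libraries, compared with 371 (Control 1), 403 (Control 2), 309 (PIA 1) and 466 (PIA+IL-27 2), with a fold of 4.45, the largest among receptors. Npy2r, a receptor for neuropeptide Y found on nerve terminals, had normalized read counts of 124 (Control 1), 327 (Control 2), 134 (PIA 1) and 233 (PIA+IL-27 2), but 15.3 (PIA 2) and 33.4 (PIA+IL-27 1). In Npy2r, Control 2 and PIA+IL-27 2 were higher than Control 1 and PIA 1. Npbwr1, the receptor of neuropeptides B and W, had 33.8 (PIA 2) and 46.9 (PIA+IL-27 1) as its low normalized read counts, and 244 (Control 1), 249 (Control 2), 170.1 (PIA 1) and 284 (PIA+IL-27 2) as its high ones. Rxfp3, the relaxin-3 receptor, had a normalized read count of 27.3 (PIA 2) or 46.9 (PIA+IL-27 1) in the low libraries, compared with 151 (Control 1), 190.4 (Control 2), 134 (PIA 1) and 200.01 (PIA+IL-27 2). The 4 high libraries of these 2 receptors lay within 1.66-fold and 1.49-fold of each other. Mas1, the Mas receptor of the angiotensin system, had normalized read counts of 216 (Control 1), 228 (Control 2), 147 (PIA 1) and 238 (PIA+IL-27 2), but 68.7 (PIA 2) and 59.4 (PIA+IL-27 1). Gpr83, a receptor of the same class, had 13.1 (PIA 2) and 21.9 (PIA+IL-27 1) as its low normalized read counts, and 76.4 (Control 1), 93.3 (Control 2), 45.2 (PIA 1) and 73.8 (PIA+IL-27 2) as its high ones.

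Chrna5, a subunit of nicotinic acetylcholine receptors, had a normalized read count of 30.5 (PIA 2) or 97.0 (PIA+IL-27 1) in the low libraries, compared with 254 (Control 1), 378 (Control 2), 259 (PIA 1) and 435 (PIA+IL-27 2). The read counts of Chrna5 were not whole in 5 libraries, so its level is less certain. Epha6, an Eph receptor tyrosine kinase bound by ephrin-A ligands, had normalized read counts of 252 (Control 1), 322 (Control 2), 216 (PIA 1) and 289 (PIA+IL-27 2), but 52.4 (PIA 2) and 75.1 (PIA+IL-27 1). Fibcd1 (gene ID 98970), a membrane receptor used as a marker of CA1 pyramidal cells, had 506 (PIA 2) and 214 (PIA+IL-27 1) as its low normalized read counts, and 1237 (Control 1), 1717 (Control 2), 1626 (PIA 1) and 1102 (PIA+IL-27 2) as its high ones. It had the highest level among the receptors, with a mean of 25.1 TPM, and its 2 low libraries differed from each other, PIA+IL-27 1 being lower. Of 5 listed markers of pyramidal and mossy cells, 2 were lowest in both libraries, Fibcd1 and Zbtb20. Outside Fibcd1, which the rule chose, this is 1 of 4, and Zbtb20 had 236 (PIA+IL-27 1) against 249.8 (PIA 1). Nectin3 had 179 (PIA 2) but 730 (PIA+IL-27 1), against 374 (Control 1) and 480 (PIA 1). Csf2rb2 had 106 (PIA 2) against 35.2 (Control 2), and Galnt3 did not separate the libraries either. Htr2c, a serotonin receptor that is also abundant in the choroid plexus, had a normalized read count of 129.8 (PIA 2) or 173 (PIA+IL-27 1) in the low libraries, compared with 348 (Control 1), 1027 (Control 2), 417 (PIA 1) and 618 (PIA+IL-27 2). Control 2, the highest library for Htr2c, was also the highest for choroid plexus markers: the 25 listed markers of 28 summed to 69794 normalized read counts there, to 14843 in PIA 1 and to between 1874 and 3081 in the other 4, and the choroid channel subunit Kcne2 had 0 in Control 1. Ttr alone held 58611 of the sum in Control 2 and 11302 of that in PIA 1. Htr2c was lower in PIA 1 (417), with the second highest sum, than in PIA+IL-27 2 (618). The part of these markers in the level of Htr2c was not tested.

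Secreted and matrix proteins included the most abundant gene of the module. Igfbpl1 (gene ID 75426), an IGF-binding-like protein of young neurons, had normalized read counts of 2736 (Control 1), 2045 (Control 2), 2014 (PIA 1) and 2267 (PIA+IL-27 2), but 259 (PIA 2) and 222 (PIA+IL-27 1). Its mean of 69.5 TPM was the highest of the 37 genes, and the 4 high libraries lay within 1.36-fold of each other. Wnt2, a secreted Wnt ligand, had 8.73 (PIA 2) and 6.26 (PIA+IL-27 1) as its low normalized read counts, and 90.1 (Control 1), 93.3 (Control 2), 66.3 (PIA 1) and 90.3 (PIA+IL-27 2) as its high ones. Il16, whose precursor is processed to a cytokine, had a normalized read count of 82.9 (PIA 2) or 64.6 (PIA+IL-27 1) in the low libraries, compared with 358 (Control 1), 353 (Control 2), 270.0 (PIA 1) and 302 (PIA+IL-27 2), the narrowest spread over the 4 high libraries (1.33-fold). Cnmd, the cartilage glycoprotein chondromodulin, had normalized read counts of 59.7 (Control 1), 79.0 (Control 2), 33.6 (PIA 1) and 112 (PIA+IL-27 2), but 1.09 (PIA 2) and 9.38 (PIA+IL-27 1). In Cnmd PIA 2 was far below PIA+IL-27 1. Mia, a small secreted protein with an SH3 domain, had 25.1 (PIA 2) and 25.03 (PIA+IL-27 1) as its low normalized read counts, and 99.9 (Control 1), 219 (Control 2), 77.8 (PIA 1) and 146 (PIA+IL-27 2) as its high ones, and Mamdc2, a matrix proteoglycan, had a normalized read count of 49.1 (PIA 2) or 81.3 (PIA+IL-27 1) in the low libraries, compared with 211 (Control 1), 256 (Control 2), 182 (PIA 1) and 215 (PIA+IL-27 2).

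Serpina3n (gene ID 20716), a protease inhibitor known from reactive astrocytes, stood apart from the other genes of the module. It had normalized read counts of 1226 (Control 1), 638 (Control 2), 2535 (PIA 1) and 460.2 (PIA+IL-27 2), but 199.7 (PIA 2) and 223 (PIA+IL-27 1). PIA 1 held more than each Control library, and it was the one gene of the 37 with its highest level in PIA 1. Serpina3n was also the one gene of the module among 25 listed genes of inflammation and MHC, whose normalized read counts summed to 14827 in PIA 1 and to between 1639.7 and 5280.5 in the other libraries. It belongs to a cluster of closely similar genes, and its read counts were not whole in 3 libraries.

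Of the 5 enzymes, Car12, a membrane-bound carbonic anhydrase, had 33.8 (PIA 2) and 51.1 (PIA+IL-27 1) as its low normalized read counts, and 214 (Control 1), 931 (Control 2), 261 (PIA 1) and 275 (PIA+IL-27 2) as its high ones. Its level in Control 2 was over 3-fold that of any other library, in the library where choroid plexus markers were highest. These markers summed to 14843 in PIA 1 and 3081 in PIA+IL-27 2, where Car12 had 261 and 275. The part of choroid plexus markers in the level of Car12 was not tested. Ndst4, which sulfates heparan chains, had a normalized read count of 7.64 (PIA 2) or 20.9 (PIA+IL-27 1) in the low libraries, compared with 70.5 (Control 1), 228 (Control 2), 50.9 (PIA 1) and 174 (PIA+IL-27 2). B3galt5, a galactosyltransferase, had normalized read counts of 189 (Control 1), 289 (Control 2), 174 (PIA 1) and 233 (PIA+IL-27 2), but 57.8 (PIA 2) and 46.9 (PIA+IL-27 1). Of the other 2 enzymes, Akr1c18, which inactivates progesterone, had a mean of 2.66 TPM, and Ugt1a6a, a glucuronosyltransferase that shares exons with its neighbours and has non-whole counts in all 6 libraries, had 1.09 TPM.

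Among intracellular proteins Pdlim3 (gene ID 53318), an actinin-binding protein with a PDZ and a LIM domain, had 5.46 (PIA 2) and 1.04 (PIA+IL-27 1) as its low normalized read counts, and 107 (Control 1), 93.3 (Control 2), 64.4 (PIA 1) and 68.9 (PIA+IL-27 2) as its high ones. PIA+IL-27 1 was the lowest library for Pdlim3, and the fold was 10.1. Dsp, the desmosome protein desmoplakin and a marker of dentate granule cells, had a normalized read count of 6.55 (PIA 2) or 16.7 (PIA+IL-27 1) in the low libraries, compared with 54.9 (Control 1), 122.8 (Control 2), 72.1 (PIA 1) and 59.2 (PIA+IL-27 2). It had the lowest mean level of the module, 0.715 TPM. Crabp1, a retinoic acid carrier, had normalized read counts of 109.7 (Control 1), 196 (Control 2), 82.6 (PIA 1) and 80.6 (PIA+IL-27 2), but 21.8 (PIA 2) and 16.7 (PIA+IL-27 1). Tnfaip8l3, a phosphoinositide carrier, had 10.9 (PIA 2) and 17.7 (PIA+IL-27 1) as its low normalized read counts, and 57.8 (Control 1), 113 (Control 2), 62.5 (PIA 1) and 121 (PIA+IL-27 2) as its high ones. Lrrc23, a protein of motile cilia, had a normalized read count of 42.5 (PIA 2) or 38.6 (PIA+IL-27 1) in the low libraries, compared with 173 (Control 1), 202 (Control 2), 94.2 (PIA 1) and 291 (PIA+IL-27 2). PIA 1 had fewer reads of Lrrc23 than the other 3 high libraries, and the 43 listed genes of ependyma and motile cilia summed to normalized read counts of 1088 (PIA 1), 1079 (PIA 2) and 1862 (PIA+IL-27 1), and to 1955 to 4071 for the other 3 libraries. Bves, Rasd1, Insc and Tmem215, the remaining 4, had folds of 2.78, 2.74, 2.44 and 2.12.

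**Figure D3:**
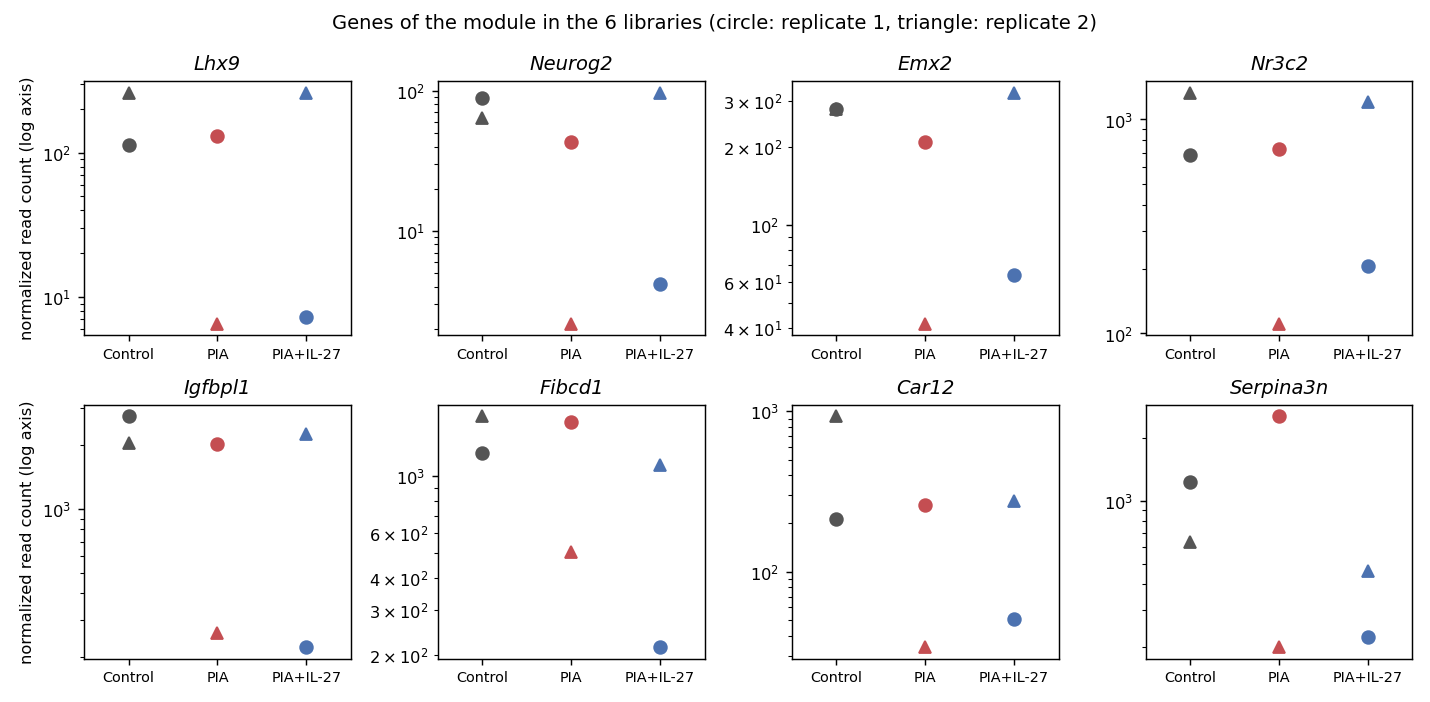
Normalized read counts (log axis) of 8 genes in the Control, PIA and PIA+IL-27 libraries; circles are replicate 1 and triangles replicate 2. In PIA the low library is replicate 2 and in PIA+IL-27 it is replicate 1, and the Control libraries lie above both low libraries in all 8 genes.

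Per length, the 37 genes ranged from 0.715 to 69.5 TPM in their mean over the libraries, with a median of 4.47 TPM against 2.66 TPM over all listed genes. Of the 37, 8 had at least 10 TPM and 6 had under 2 TPM. Their TPM values summed to 76.8 (PIA 2) and 88.7 (PIA+IL-27 1), and to 445 (Control 1), 635 (Control 2), 454 (PIA 1) and 489.9 (PIA+IL-27 2). The genes just inside the threshold were Htr2c, Gpr83 and Serpina3n, with ratios of 0.499, 0.496 and 0.486. Just outside were Clrn1, Nrp1 and Npffr1, with 0.501, 0.512 and 0.517. Nrp1, a receptor for semaphorins, had a normalized read count of 209 (PIA 2) or 676 (PIA+IL-27 1) in the low libraries, compared with 1320.3 (Control 1), 2608 (Control 2), 1344 (PIA 1) and 3053 (PIA+IL-27 2). Of the genes dropped by name, Eomes had the lowest ratio of the 41 (0.0590), and Prox1 had 0.293, Kcng2 0.433 and Cfap126 0.453.

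The rule sets only a minimum for the 4 high libraries, and how the genes varied among these 4 is described here. In 20 of the 37 genes the highest and lowest of the 4 lay within 2-fold, against 10.8% of the 2068 genes with the minimum. Control 2 exceeded Control 1 by over 2-fold, or the reverse, in 10 genes, against 74.7% of the 2068. From Control 1 to Control 2 the module's median log2 ratio was 0.40, and that of the 2068 genes was 1.39. From PIA 1 to PIA+IL-27 2 these medians were 0.59 and 0.93. PIA 1 was the lowest of the 4 in 22 genes, against 15.5% of the 2068, and Control 1 in 10, against 68.8%. Control 2 was the highest in 19 genes (53.7% of the 2068) and PIA+IL-27 2 in 13 (31.4%). These are single libraries, and the module was chosen by their minimum, so the shares are given without a test. The largest ratios of Control 2 to Control 1 were in Car12 (2.12 on the log2 scale), St18 (1.95) and Ugt1a6a (1.80), and the lowest in Serpina3n (-0.94), Neurog2 (-0.46) and Igfbpl1 (-0.42).

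**Figure D4:**
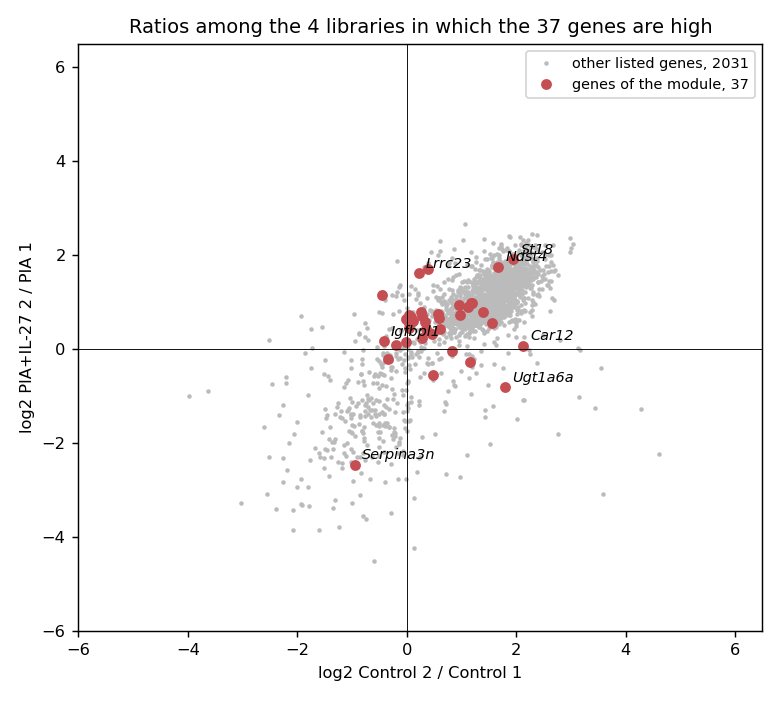
Log2 ratios of PIA+IL-27 2 to PIA 1 (vertical) against Control 2 to Control 1 (horizontal) for the 37 genes (red) and the other 2031 listed genes with the minimum (grey). Many genes of the module lie near the origin, to the left of the main grey cloud, while St18 and Ndst4 lie within that cloud, Car12 and Ugt1a6a below it and Serpina3n at the lower left.

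The low libraries were not alike in depth of the gap. PIA 2 was lower than PIA+IL-27 1 in 24 genes and higher in 13, while PIA 2 was the lower one in 82.3% of the 2068 genes. The median log2 ratio of PIA 2 to PIA+IL-27 1 was -0.41 for the module and -1.59 for the 2068 genes.

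PIA and PIA+IL-27 each hold 1 low and 1 high library, so by the rule their values overlapped in all 37 genes, while 57.1% of all listed genes had both PIA+IL-27 libraries above both PIA libraries and 16.5% below. The higher PIA library was below the lower Control library in 24 genes and overlapped Control in 13, against 16.5% of all listed genes, and 17.2% had PIA above Control. Both PIA+IL-27 libraries were below Control in 9 and above it in 0, against 7.5% and 23% of all listed genes. The rule used these same values, so nothing is read from the counts.

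Few listed genes passed edgeR's quasi-likelihood test with Benjamini-Hochberg adjustment in the 3 comparisons, fitted over 3216 genes, and 0 of the 37 did. In PIA against Control 0 of 37 passed, where 0.218% of all tested genes did, and 3 had an unadjusted p under 0.05. In PIA+IL-27 against PIA 0 passed (0.435% of all) and 1 had an unadjusted p under 0.05. In PIA+IL-27 against Control 0 passed (0.311% of all) and 1 had an unadjusted p under 0.05. DESeq2 and limma also called 0 of the 37. So few of all tested genes passed that 0 of 37 says nothing particular about the module. The rule also sets 1 low and 1 high library in PIA and in PIA+IL-27, so nothing is read from these counts. The median log2 fold changes of the module were -1.26, 0.55 and -0.66 in the 3 comparisons, against -0.68, 1.17 and 0.55 over all genes tested. With TMM factors over the listed genes the medians of all genes moved to -0.00, -0.03 and -0.01 and those of the module to -0.86, -0.43 and -1.32, so the direction in PIA+IL-27 against PIA turned with the scaling. Control libraries are above the low library of each other group in every gene by the rule, which fixes most of the direction of both comparisons with Control. The comparisons share libraries and are not independent of each other.

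In PIA against Control the smallest p of the module was that of Ndst4, at -2.34 ± 0.997 log2 units (fold change ± SE, 2 libraries per group, edgeR adjusted p = 0.617). Car12 followed with -1.95 ± 0.898 and St18 with -2.01 ± 0.985 (adjusted p = 0.617 for both, edgeR). Serpina3n was the one gene above 0, with 0.55 ± 0.832 (adjusted p = 0.658, edgeR), and limma on TPM gave it values below 0. In PIA+IL-27 against PIA, Serpina3n had -2.0 ± 0.862 (adjusted p = 0.257, edgeR). St18 had 1.92 ± 0.983 (adjusted p = 0.264), Ndst4 1.72 ± 0.981 (adjusted p = 0.276) and Cnmd 1.79 ± 1.04 (adjusted p = 0.281, edgeR). Fibcd1 and Ugt1a6a were next among the genes below 0, with -0.70 ± 0.828 and -0.51 ± 1.08 (adjusted p = 0.462 and 0.675, edgeR). In PIA+IL-27 against Control all 37 lay below 0, led by Car12 (-1.81 ± 0.894), Ugt1a6a (-1.93 ± 1.09) and Serpina3n (-1.45 ± 0.848), each with adjusted p = 0.835 (edgeR). Single libraries moved these values by over 1.5 times. In PIA against Control, Ndst4, Car12 and St18 were at -1.26, -0.53 and -0.72 without Control 2, at -1.55, -1.13 and -1.10 without PIA 2, and at -4.26, -4.08 and -5.26 without PIA 1. Without Control 2, Car12 and Ugt1a6a were at -0.39 and -0.70 in PIA+IL-27 against Control, and Car12 was at -1.06 without PIA+IL-27 1 and -3.48 without PIA+IL-27 2. Serpina3n was at -0.90 without Control 1 in that comparison.

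Without PIA 2 the median of the module in PIA against Control was -0.54, and 35 of 37 genes stayed below 0, while the median of all genes was -0.52. Without PIA+IL-27 1 the median in PIA+IL-27 against Control was 0.013, with 19 genes above and 18 below 0, where the median of all genes was 0.39. With both low libraries left out, PIA+IL-27 2 against PIA 1 gave a median of 0.59 with 31 genes above 0, against 0.90 over all genes, and edgeR called 0 of the 37 and 0% of all tested genes, with 0 of the 37 at an unadjusted p under 0.05. In that fit each treated group has 1 library, which is assumed to vary like the Control libraries. Without PIA+IL-27 2 all 37 genes were below 0 in PIA+IL-27 against PIA, and without PIA 1 all 37 were above 0. The rule fixes both of these outcomes, since a low library alone is then compared with a group that holds a high one, and nothing is read from them.

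These thresholds, which every listed gene meets in at least 1 comparison, were used to count calls. By these calls in the authors' deposited table, PIA was below Control for 34 of the 37 genes, where 34.7% of all listed genes were called lower, and 0 were higher, against 18.2%. The exceptions were Fibcd1, Vax1 and Serpina3n. In PIA+IL-27 against PIA the authors' deposited table has Cnmd, Lrrc23, Ndst4, Neurog2 and St18 higher (5 genes) and Serpina3n lower (1 gene), against 62.1% and 18.4% of all listed genes. In PIA+IL-27 against Control the authors' deposited table has 8 lower (Car12, Crabp1, Dsp, Fibcd1, Pdlim3, Serpina3n, Ugt1a6a and Vax1), against 8.67%, and 0 higher, against 13.4%. The authors' deposited table thus calls 26 of the genes in 1 comparison and 11 in 2. The rule used the same libraries, and nothing is read from these counts.

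The rule did not use sequence, and the transcripts of the module had a higher median GC content and a lower median length than the listed genes with the minimum. The median GC content of the longest coding transcript in GENCODE M21 was 49.1% for the 37 genes, with quartiles of 45.9 and 52.3%, and 43.6% for the 2037 of 2068 genes with a value, with quartiles of 40.9 and 47.5%. Of the 37 genes, 31 were above that median. The median transcript length was 3414 bases, against 4607, and 11 of the 37 were above the latter. Vax1 had the highest GC content (65.4%) and Ndst4 the lowest (39.3%). Genes are not replicates, so no test is given, and the part of GC content and length in the library differences was not tested.

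**Figure D5:**
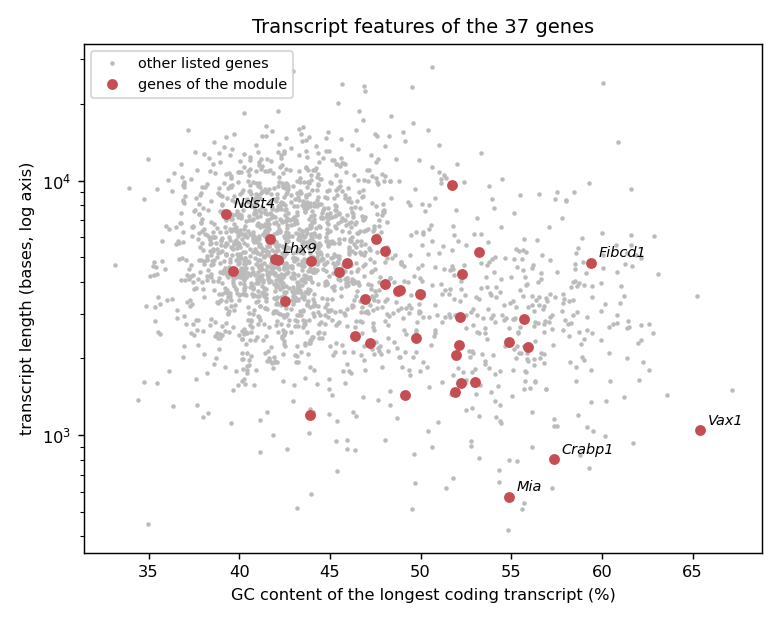
GC content (horizontal) and length (vertical, log axis) of the longest coding transcript for the 37 genes (red) and the other listed genes with the minimum (grey). Most red points (31 of 37) lie above the grey median GC content of 43.6%, and they run from Ndst4 at 39.3% to Vax1 at 65.4%.

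Some genes of the module lie near each other in the genome. In the order of protein-coding genes of the RefSeq table (GRCm38.p6), Emx2 and Vax1 on chromosome 19 have 3 such genes between them, Npbwr1 and St18 on chromosome 1 have 2, Chrna5 and Crabp1 on chromosome 9 have 4, and Ndst4 and Neurog2 on chromosome 3 have 6. Tnfaip8l3, also on chromosome 9, has 9 such genes between it and Crabp1 and 14 between it and Chrna5. Chromosome 9 holds 5 of the 37 genes, and chromosomes 1 and 7 hold 4 each. The same counts were not made for the other listed genes, so nothing is read from these positions. The values of neighbours were not alike throughout: Emx2 had more reads in PIA+IL-27 2 than in Control 1, while Vax1 had fewer.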

How the data were processed

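RNA of mouse hippocampus was sequenced as 6 libraries, 2 for every treatment named in the labels. The deposited table holds 3733 selected genes, with 641672 to 1593441 reads per library. Its expected counts are the authors' estimates, per the file headers, and 11.3 to 13.3% are not whole. The normalized read count deposited by the authors is used as a signal: rounding up the expected count and dividing it by a library factor (0.917 to 1.05) returned 100% of the values within 1e-06. TPM and FPKM are the authors' values per the file headers, and FPKM was not analysed. The log2 ratios and Q values (adjusted p-values) are those of the authors' deposited table. No source used here gives their test, aligner, counter or genome build.

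The rule for the 37 genes was applied to the normalized read counts. The genes and the gene lists were chosen with earlier results of these data known. For testing, expected counts were rounded and fitted with edgeR 4.0.16 under R 4.3.3, with all 6 libraries in 1 model and the authors' factors. Filtering with filterByExpr at a minimum count of 10 left 3216 genes, all 37 among them. The script was checked on simulated counts with 200 changed genes. The common biological coefficient of variation was 0.597. The prior degrees of freedom were infinite, so each gene took a spread fitted to its mean level rather than its own. Alternatives were other library factors (TMM, or DESeq2's median of ratios), omission of the filter, a block for the replicate number, fewer libraries, DESeq2 1.42.0, limma 3.58.1 on log2 TPM with 1 or 0.1 added, and other thresholds of the rule. By rule, the text names the most abundant genes of each list, those with the lowest ratio, those at the threshold, the 3 smallest p in each direction, the 10 highest TPM and the extreme Control ratios, and the others were named after their values were seen. GC content and length come from GENCODE M21 (37 of 37 genes matched), and promoters from RefSeq.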

Additional observations from a re-analysis of the deposited data

How the results depend on the processing

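The count of module genes past the threshold was 0 in each of the 3 comparisons with other factors, no filter, only the compared libraries, DESeq2, limma and each library left out in turn; with a replicate block it was also 0, and the medians were -1.12, 0.33 and -0.81. The replicate numbers share only a label: deviations of same-numbered libraries correlated at 0.15, 0.06 and -0.26 over 3216 genes. With PIA and PIA+IL-27 libraries paired crosswise, an alternative chosen after seeing the data, 3 of 37 genes passed in PIA+IL-27 against PIA, and 1195 of all 3006. This pairing puts PIA 2 with PIA+IL-27 1, so the block takes up the same split by which the rule chose the genes. Nothing is read from these calls. The median in PIA+IL-27 against PIA turned to -0.43 with TMM and -0.45 with median-of-ratios factors, and ran from -1.05 to 2.22 with 1 library left out, both ends being fixed in sign by the rule. In PIA against Control that range was -2.80 to -0.54, and in PIA+IL-27 against Control -2.39 to 0.013; it was 0.013 with both low libraries left out. With TMM factors all genes tested gave 0 calls in each comparison. With only the libraries of the comparison, 449 of 3006 genes passed in PIA+IL-27 against PIA and 0 of the 37. The rule sets 1 low and 1 high library in each of these groups, so all 37 genes overlap, and nothing is read from this count. Serpina3n in PIA against Control was -0.40 and -0.44 in limma on log2 TPM with 1 and 0.1 added. The number of genes was 21 with TPM in place of normalized read counts, again with 1 added to each value. The added 1 narrows these ratios more, because TPM values were lower than normalized read counts (median mean of 4.47 TPM). The 21 therefore depends on the added 1 as well as on the unit. The number was 18 and 57 at a stricter and a looser ratio, 43 with TMM factors (24 shared) and 29 to 54 with other minimums. With 1 library left out the log2 values ranged, in PIA+IL-27 against PIA, from -1.47 to 5.16 for St18, -0.49 to 3.65 for Ndst4, -0.89 to 5.64 for Cnmd, -2.89 to 0.78 for Serpina3n, -2.32 to 0.38 for Fibcd1 and -1.30 to 1.38 for Ugt1a6a, and in PIA against Control from -2.23 to 1.44 for Serpina3n, -4.26 to -1.26 for Ndst4, -4.08 to -0.53 for Car12 and -5.26 to -0.72 for St18. The ranges in PIA+IL-27 against Control were -3.48 to -0.39 for Car12, -2.71 to -0.70 for Ugt1a6a and -2.06 to -0.90 for Serpina3n. The causes were not tested. Depth limits the lowest levels: Pdlim3 and Cnmd rest on 1 read in 1 library and Neurog2 on 2.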
